A study of Homo sapiens with 2 samples.

Results

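In the deposited lists, some MSI2 CLIP-seq peaks are written with the same coordinates under more than 1 gene ID. The intervals described here are those with the same chromosome, start, end and strand under 2 or more different Ensembl gene IDs, with the ID read up to its version. Counted once each, they numbered 595 of 25191 distinct intervals in replicate 1 and 684 of 24403 in replicate 2. Both lists come from 1 group, MSI2 CLIP-seq of NB4 cells with no knockdown, transgene or drug named in the labels, crosslinked on ice with ultraviolet light at 400 mJ per square centimetre. NB4 is an established human acute promyelocytic leukaemia line, so each library stands for 1 cell line. No control antibody or input library was analysed here, and the intervals cannot be told apart from repeatable background. The cell type was not checked against marker genes, because the sources used here do not pair the gene IDs with symbols. Genes are therefore given by ID and by hg19 position, counted from 1 at the chromosome's start.

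MSI2 (Musashi-2) is an RNA-binding protein that attaches to mature messenger RNAs, often in their 3' untranslated regions, and affects their stability and translation. In CLIP-seq ultraviolet light joins a protein to the RNA it touches, an antibody recovers that protein, and the attached RNA fragments are sequenced. A fragment that maps to a stretch shared by overlapping genes does not tell which transcript carried it. Such stretches arise where a gene lies inside an intron or the last exon of another, where annotated readthrough transcripts join neighbouring genes, and where alternative first exons are spliced to common last exons. No genome sequence of the files' build was used, so peak sequences are not shown.

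Repeated listing was a small part of each list but reached many gene IDs. The intervals made up 2.36% of replicate 1 (95% Wilson interval 2.18% to 2.56%) and 2.80% of replicate 2 (2.60% to 3.02%). Their lines were 1324 of 25920 in replicate 1 and 1524 of 25243 in replicate 2. They touched 636 of the 7252 gene IDs in replicate 1 and 683 of the 7101 in replicate 2, or 8.77% and 9.62%. Of those, 473 IDs in replicate 1 and 503 in replicate 2 had no peak listed under them alone in that list. Over both lists, 590 of the 929 IDs touched (63.5%) had no such peak in either. Among the 4001 gene IDs with a replicate 1 peak overlapped in replicate 2, 219 (5.47%) had shared intervals as their only recurring peaks. Nearly all shared intervals had exactly 2 gene IDs, at 549 in replicate 1 and 641 in replicate 2, and 39 and 33 had 3. Intervals with 4 or more IDs numbered 7 in replicate 1 and 10 in replicate 2, and all of them belonged to a single place on chromosome 5.

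That place on the plus strand of chromosome 5 carried 21 gene IDs, the most of any. Here 1 interval in each list was named under all 21 IDs, at 140891000 to 140891033 with a tally of 7 in replicate 1 and at 140890995 to 140891058 with a tally of 10 in replicate 2. The tally is the whole number that ends each peak's name. No header explains it, and it was at least 3 and equal under all gene IDs of an interval in both lists. A further 8 intervals, 4 in each list, were named under 20 IDs, and those 20 were the same in every case and all among the 21. The strongest of them lay at 140892214 to 140892316 with a tally of 31 in replicate 1. Its counterpart at 140892230 to 140892324 had a tally of 26. The next ran from 140892397 to 140892471 with a tally of 22, against 140892396 to 140892471 with a tally of 24. All 5 intervals with 20 or 21 IDs in replicate 1 were overlapped in replicate 2, and the other way round.

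More than 2 kb from the common end, the peaks of the chromosome 5 group had the lowest tally, 3, and did not recur. Replicate 1 had intervals with 4 IDs at 140857232 to 140857251 and at 140858085 to 140858099, each with a tally of 3. Replicate 2 had intervals with 5 IDs at 140817916 to 140817931 and with 8 IDs at 140874402 to 140874421 and 140884961 to 140884963, also with tallies of 3. All intervals with 4 to 12 of the IDs lay 5' of those with 20 or 21, in both lists. One gene ID stood apart from the others: ENSG00000253873.1 had 9 peaks of its own, and each of them enclosed an interval that was listed under other IDs. In replicate 1 its peak at 140891502 to 140891566 enclosed the 20-ID interval at 140891506 to 140891560, and both had a tally of 12. In replicate 2 the 21 IDs were also divided at a further site, with 9 of them at 140890560 to 140890626 and the other 12 at 140890567 to 140890623, both with a tally of 10. No interval of replicate 1 overlapped these. The names of the genes cannot be read from the files. In RefSeq's table for GRCh38.p14, the largest set of genes sharing one end on a strand is 20 protocadherin gamma genes on the plus strand of chromosome 5, followed by 13 protocadherin alpha genes on the same strand. Protocadherin gamma genes encode cell adhesion proteins and are known for variable first exons that join common last exons. The table has no Ensembl IDs, so a match of the 21 IDs to these genes was not tested.

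**Figure D1:**
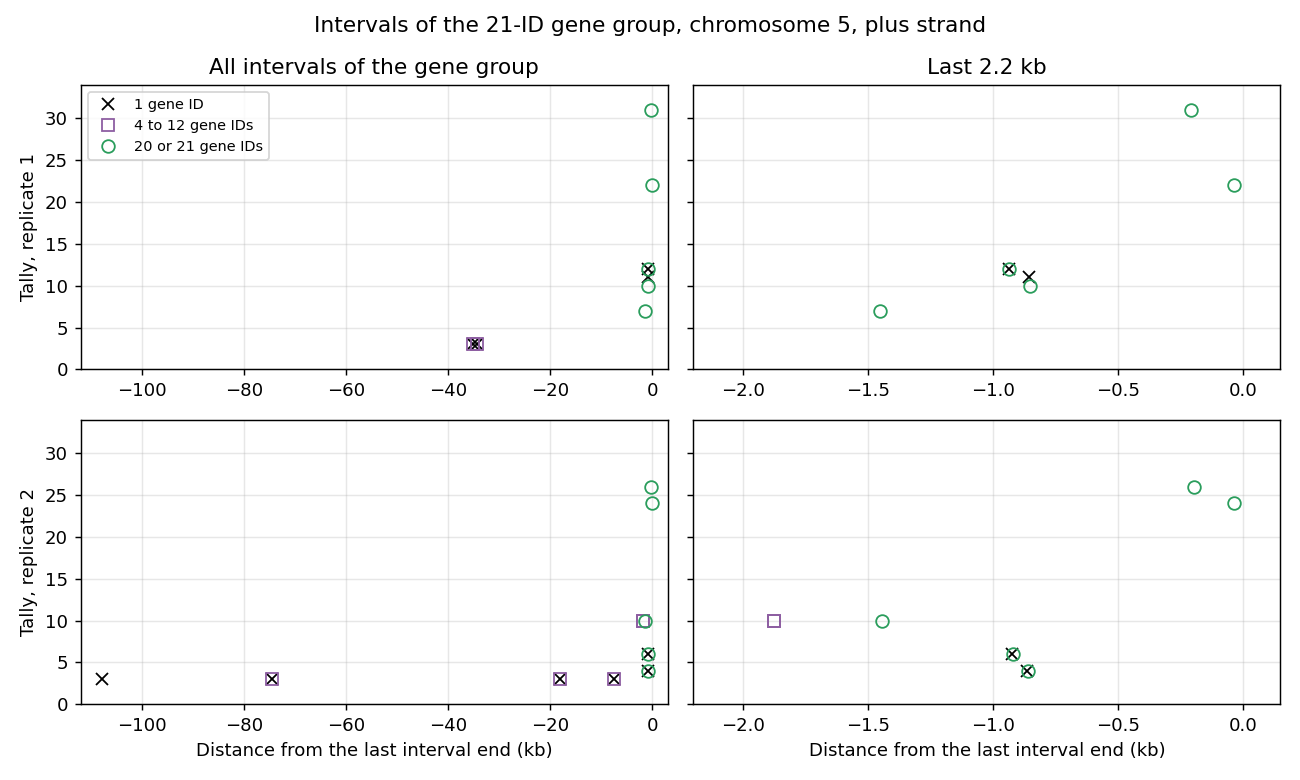
Tally (vertical axis, whole number) of every interval under the 21 gene IDs on chromosome 5, against distance in kb from the last interval end, in replicate 1 (top) and replicate 2 (bottom), with the last 2.2 kb enlarged at right. Circles are intervals with 20 or 21 IDs, squares 4 to 12 IDs and crosses a single ID; tallies of 22 and more lie within 0.25 kb of the end in both lists.

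Gene IDs that shared any interval in either list were joined into 425 gene groups with 929 gene IDs. Most, 368, were pairs, 53 were trios and 4 were larger. Multi-ID intervals were present in 292 groups in replicate 1 and in 312 in replicate 2. The 179 groups found in both made up 61.3% of the former and 57.4% of the latter. Groups seen in 1 list alone mostly rested on a single interval, at 81 of 113 for replicate 1 and 80 of 133 for replicate 2. Among the 368 pairs, both IDs were listed only with each other in 150 (40.8%), 1 ID alone had peaks of its own in 144 (39.1%), and both did in 74 (20.1%). A peak of its own is an interval listed under that ID alone, and it can overlap a call of the other ID with other bounds. In the shared stretches of pairs, 184 intervals of replicate 1 and 87 of replicate 2 were listed under 1 ID. An interval of the other ID overlapped 145 and 68 of them. The peak spans of the IDs, from first to last peak over both lists, were nested in 190 pairs, equal in 153 and staggered in 25. In a staggered pair the shared part is the 3' end of one span and the 5' end of the other by construction. A relative position was taken for each shared interval, where 0 is the 5' end of the span and 1 its 3' end. The median of the 25 pair medians was 0.98 in the 5' member and 0.086 in the 3' member. The pair median was below 0.5 in the 3' member for 22 of the 25 pairs, so in some pairs the shared intervals reached far into it.

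The groups with the most intervals were of several kinds. A pair on the minus strand of chromosome 20, ENSG00000244005.7 and ENSG00000244462.3, shared 9 intervals in each list between 34237446 and 34242850. Their tallies in replicate 1 were between 5 and 16 with a median of 8, and in replicate 2 between 3 and 11 with a median of 7. Of the 9, 8 recurred from replicate 1 and 7 from replicate 2. The first ID also had peaks of its own near 34220605 to 34220752, in the 3' direction, with tallies of 3 to 5. The second had none.

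A pair on the plus strand of chromosome 9, ENSG00000157654.13 and ENSG00000241978.5, also shared 9 intervals in each list, spread over 123 kb from 112811102 to 112934515. Neither had any peak listed alone. Tallies reached 18 in replicate 1 and 16 in replicate 2, and 4 intervals recurred in each list. A group of 4 IDs on the plus strand of chromosome 17 differed most between the lists among the 10 groups with the most intervals. It had 10 intervals in replicate 1, between 7476159 and 7482293, with tallies of 4 to 6, but 3 in replicate 2, each with a tally of 3. In each list 2 of them were overlapped in the other.

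On the minus strand of chromosome 1, ENSG00000153187.12 and ENSG00000188206.5 shared 6 intervals in replicate 1 and 10 in replicate 2 between 245014592 and 245018727. The first ID had 13 further peaks in replicate 1 and 19 in replicate 2. The other had 2 and 0. On the minus strand of chromosome 2, ENSG00000115970.14 and ENSG00000152518.5 shared 8 and 7 intervals within 1.57 kb, from 43449564 to 43451137. Over both lists, the peaks of the second ID spanned 3.85 kb, inside a span of 351 kb for the first. The first ID's own peaks reached 43453442 in replicate 1 and 43800091 in replicate 2, so the long span came from replicate 2. In each list 6 shared intervals recurred. Their tallies in replicate 1 were between 8 and 35 with a median of 17.5, and in replicate 2 between 7 and 39 with a median of 12. This was the largest summed tally of the 10 groups with the most intervals, at 148 and 118. The remaining groups among those 10 were trios on chromosomes 20 and 5 and a pair on chromosome 6, with 12 to 14 intervals over both lists. Together the 10 groups held 151 intervals, or 11.8% of all.

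The strongest intervals were found in both lists under several gene IDs of the same group, as the choice required. Those named here had the same gene IDs in both. A plus-strand interval on chromosome 16, under ENSG00000185883.6 and ENSG00000260272.1, ran from 2569802 to 2569950 with a tally of 55 in replicate 1. In replicate 2 the same stretch was cut at 2569866 into adjoining intervals, with tallies of 35 and 57. A plus-strand interval on chromosome 2 at 29023358 to 29023433, under ENSG00000163806.11 and ENSG00000213639.5, had a tally of 49 against 39 in replicate 2, where it started at 29023356. On chromosome 1 the strongest interval of the pair described above, at 245016833 to 245016912, had a tally of 41 against 35. On chromosome 2 that of the nested pair, at 43450694 to 43450778, had a tally of 35 against 39. Neither list was higher throughout.

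A staggered pair on the plus strand of chromosome 5 had its strongest peaks in the shared stretch. ENSG00000249915.3 had 4 peaks of its own in replicate 1, from 297469 to 311449, with tallies of 3 and 4, and 2 in replicate 2, with tallies of 4 and 6. ENSG00000063438.12 had 4 of its own in replicate 1, from 367947 to 428524, with tallies of 3 to 7, and 5 in replicate 2, with tallies of 3 and 4. Between them lay 4 shared intervals in each list, from 314565 to 315085. In replicate 1 these had tallies of 6, 38, 29 and 17, and in replicate 2 of 11, 6, 43 and 9. The interval with a tally of 38, at 314761 to 314880, met the one with 43 at 314763 to 314879. The interval with a tally of 29, at 314904 to 315001, had no overlapping peak in replicate 2 and was the strongest multi-ID interval without a counterpart. In such a pair, a count of peaks by gene ID gives the shared ones to both genes.

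Over all 74 pairs in which both IDs had peaks of their own, intervals listed under both IDs were not generally the strongest. The median tally was 6 for 97 shared intervals and 5 for 521 others in replicate 1, and 4.5 for 160 and 4 for 393 in replicate 2. Where a list held both kinds, the highest tally of the pair was shared in 17 of 38 pairs in replicate 1 and in 22 of 52 in replicate 2. It was an unshared peak in 17 and 20. Unshared means listed under 1 ID alone, so a call in the shared stretch with other bounds counts as unshared. Whether shared stretches as a whole held the stronger peaks was therefore not tested.

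The remaining strong intervals had tallies of 17 or more in both lists. On the minus strand of chromosome 19, the interval at 12907664 to 12907751 had 23 and its counterpart 24. At 67904927 to 67905028 of chromosome 16, on the plus strand, both tallies were 21. At 46948599 to 46948675 of chromosome 13, on the minus strand, they were 23 and 19. The largest gap was at 73314173 to 73314255 of chromosome 17, on the minus strand, with 30 against 17. Across 179 matched intervals of 116 groups, the tally was higher in replicate 1 in 90, higher in replicate 2 in 63 and equal in 26. Spearman's rho between the tallies was 0.67 and Pearson's r on the log2 scale 0.75, over intervals that share libraries and genes, given as a description.

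**Figure D2:**
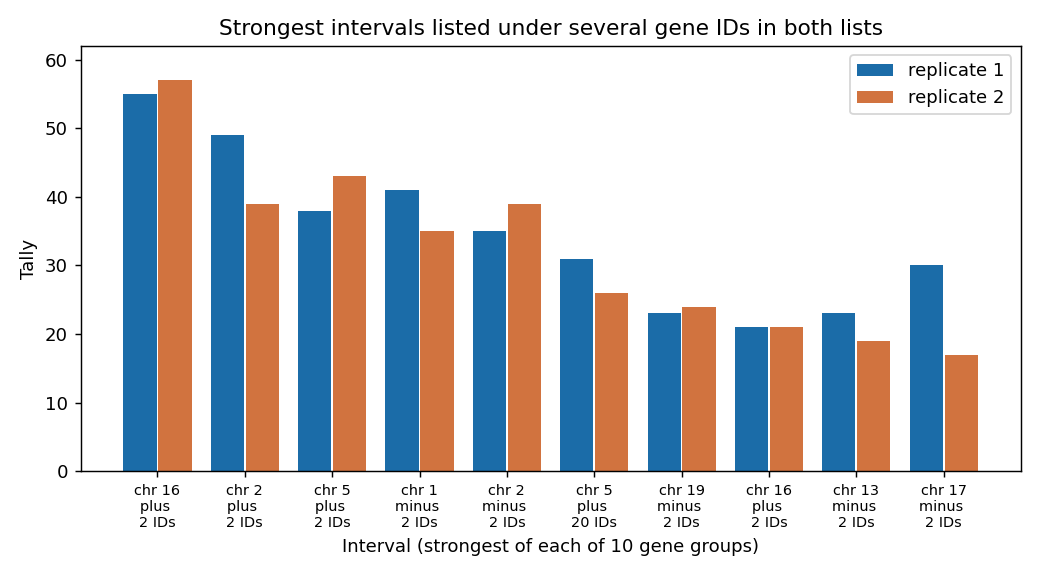
Tally of the strongest matched interval in each of 10 gene groups, labelled by chromosome, strand and number of gene IDs, in replicate 1 (blue) and replicate 2 (orange). Bars start at 0, and each is a single library's value; the chromosome 16 interval is highest, at 55 and 57, and the chromosome 17 interval differs most, at 30 and 17.

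Intervals listed under several gene IDs recurred at nearly the background rate. In replicate 1, 193 of 595, or 32.4% (95% Wilson interval 28.8% to 36.3%), shared at least 1 nt of the same strand with a replicate 2 interval, against 35.5% of all intervals of that list. In replicate 2, 238 of 684, or 34.8% (31.3% to 38.4%), were overlapped in replicate 1, against 37.1% of all intervals. These bounds reflect counting error alone, as intervals of one gene group are not independent. Recurrence rises with tally, so single-ID intervals were weighted to the tallies of the multi-ID ones. The difference was then -0.639 percentage points in replicate 1 (-4.28 to 3.23) and -0.677 points in replicate 2 (-4.15 to 2.97). A difference of that size in either direction was not detectable here. With a reciprocal overlap of 50% the shares were 26.7% and 27.9%, against 26.6% and 27.4% of all intervals. No multi-ID interval had identical coordinates in the other list, and a count of 0, with 3 counts of the total as its limit, allows up to 0.504% in replicate 1 and 0.439% in replicate 2. Over all intervals such identity was as rare, at 0.183% and 0.189%.

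By tally the recurrence of multi-ID and single-ID intervals ran together. With a tally of 3, 11.02% of multi-ID intervals and 12.02% of single-ID intervals of replicate 1 recurred, and 13.3% and 15.7% in replicate 2. With tallies of 7 to 9 the shares were 62% and 60.9% in replicate 1 and 73.4% and 69.7% in replicate 2. With tallies of 20 or more, 17 of 18 multi-ID intervals in replicate 1 and all 15 in replicate 2 were overlapped. The widest gap was at 10 to 19 in replicate 2, where 32 of 41 multi-ID intervals (78.0%, Wilson interval 63.3% to 88.0%) and 88.9% of single-ID intervals (87.3% to 90.2%) recurred. In replicate 1 the order in that class was the other way, at 87.3% and 84.2%.

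**Figure D3:**
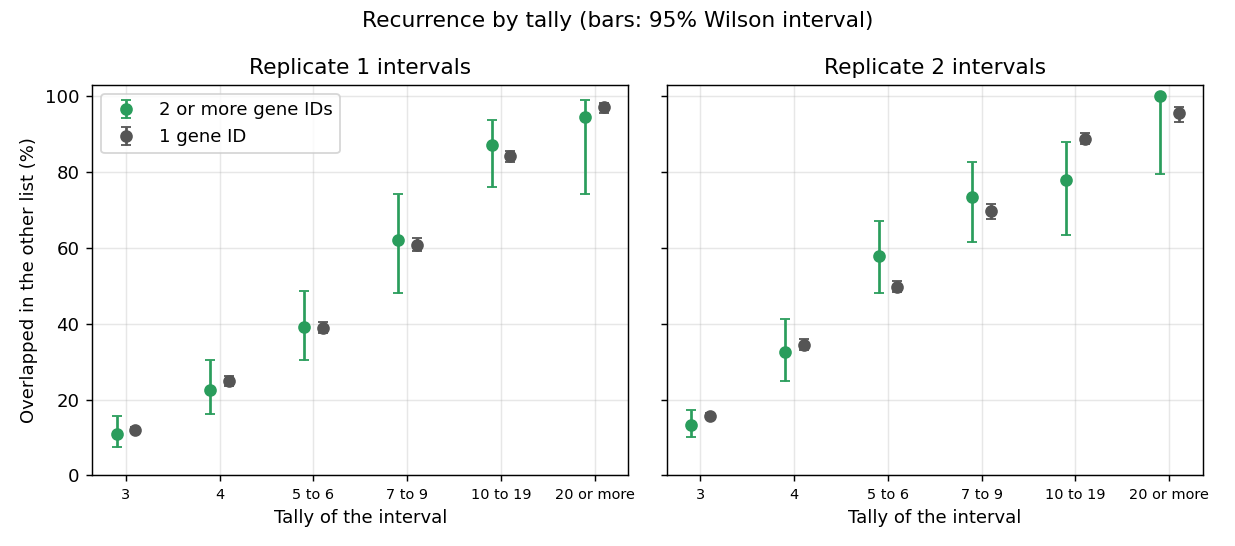
Percent of intervals that shared at least 1 nt, strand included, with an interval of the other list, by tally class, for intervals under 2 or more gene IDs (green) and under 1 (grey), with 95% Wilson intervals. In both lists the shares rise from between 11.02% and 15.7% at a tally of 3 to 94.4% or more at 20 or more, and the green intervals include the grey points except at tallies of 10 to 19 in replicate 2.

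Some strong multi-ID intervals had no counterpart in the other list. Of 73 with a tally of 10 or more in replicate 1, 8 were not overlapped (95% Wilson interval 5.66% to 20.2%), against 13.2% of 3186 single-ID intervals with such tallies. Of 56 in replicate 2, 9 were not, or 16.1% (8.69% to 27.8%), against 9.81% of 2213. Both single-ID shares lay inside the intervals of the multi-ID ones. After the chromosome 5 interval with a tally of 29, the next in replicate 1 were at 29023482 to 29023523 and 29023872 to 29023904 of chromosome 2, each with a tally of 14, beside the interval of tally 49 that recurred. In replicate 2 the strongest adjoined each other on the minus strand of chromosome 20, at 48698693 to 48698748 and 48698652 to 48698692, with tallies of 16 and 13 under 3 gene IDs. Several of these thus lay in groups whose other intervals recurred.

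Where an interval recurred, its gene IDs usually did too. Overlapping intervals lie at the same place on the same strand, so much of this follows from the match itself. Of the 193 recurring in replicate 1, 176 (91.2%) were matched by 1 interval with the same IDs, 16 by intervals that held all of the IDs in another division, and 1 by some of them. Of the 238 in replicate 2, 178 (74.8%) were matched by the same set, 39 (16.4%) by all IDs in another division and 21 (8.82%) by some. Matched intervals lay close together, with the centres of their deposited inner intervals a median of 5 nt apart and 76.5% within 10 nt. Of the 179 groups with multi-ID intervals in both lists, 63 (35.2%) had no matched pair of them. Only the partner with the largest overlap counted, so some of these groups may still hold overlapping multi-ID intervals.

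The deposited p of an interval depended on the gene ID under which it was listed, although its tally did not. The p is the authors' own and is used within a list to describe peaks. It differed between IDs for 401 intervals in replicate 1 (67.4%) and 459 in replicate 2 (67.1%). Where it differed, the higher p was a median of 1.34 times the lower in replicate 1 (quartiles 1.08 and 2.92) and 1.23 times in replicate 2 (1.06 and 1.95). It was at least 10 times higher for 44 and 35 intervals. Every listed p was under 0.05, which caps the ratio of higher to lower p, most tightly for weak peaks. A gene ID with a p above that limit would not be seen here. A p of 0.01 separated the IDs of 33 intervals in replicate 1 and of 25 in replicate 2, so a list cut there would keep the peak for one gene and drop it for another.

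The same gene ID tended to have the lower p in both lists. Of 132 matched pairs of 2-ID intervals with the same IDs and unequal p in both lists, the lower p fell to the same ID in 116 (87.9%). By gene group it did so in every pair of 79 of 90 groups and in no pair of the other 11. Counted by interval, the span of an ID's peaks did not order the p-values alike in the lists. Where spans differed, the ID with the longer span had the lower p in 121 of 217 intervals of replicate 1 (55.8%) and in 137 of 283 of replicate 2 (48.4%). Counted by gene group, it mostly had the lower p in 72 of 127 groups of replicate 1, and the shorter span in 52. In replicate 2 these were 78 and 67 of 151 groups. The largest gaps came from the nested pair on chromosome 2. Its strongest interval had a p of 3.17e-27 under ENSG00000115970.14 and 6.99e-16 under ENSG00000152518.5 in replicate 1, and 9.69e-32 and 6.18e-18 in replicate 2. The longer span, taken over both lists, had the lower p there. In the staggered pair on chromosome 5 the strongest interval had a p of 3.11e-31 under ENSG00000249915.3 and 4.71e-23 under ENSG00000063438.12 in replicate 1, with 3.13e-38 and 2.46e-27 in replicate 2.

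**Figure D4:**
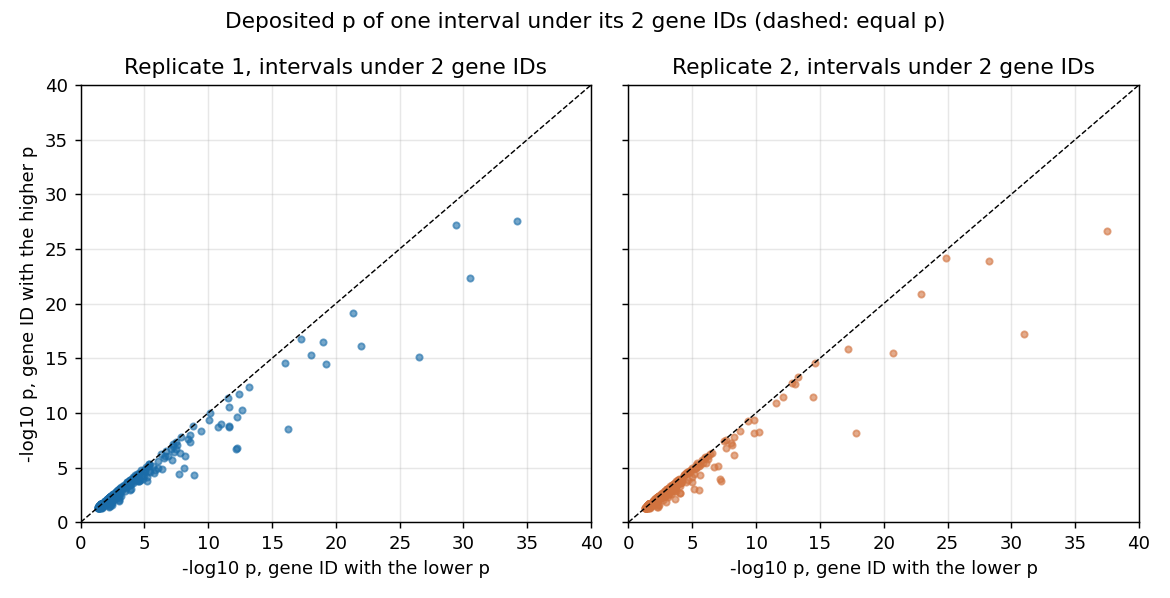
Deposited p of each interval with exactly 2 gene IDs, as -log10, under the ID with the lower p (horizontal) and the ID with the higher p (vertical), for 549 intervals of replicate 1 and 641 of replicate 2. The dashed line marks equal p, no point can lie above it, and the points farthest below belong to the pairs named in the text, such as 3.17e-27 against 6.99e-16.

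Identical coordinates were about as common as overlap with other bounds. A further 681 single-ID intervals in replicate 1 and 637 in replicate 2 were overlapped on the same strand by an interval of the same list under another gene ID. Together with the multi-ID intervals they made up 5.07% and 5.41% of the lists. They formed 368 pairs of intervals with no ID in common in replicate 1 and 344 in replicate 2. One interval lay inside the other in 97.8% and 97.7% of pairs, and the tallies were equal in 72.3% and 75.3%. The wider member had a median of 53 nt and the narrower 33 nt in replicate 1, against 50 and 29.5 nt in replicate 2. The intervals in these pairs, both members counted, had a median tally of 7 in replicate 1 and 6 in replicate 2. Of them, 61.2% and 66.5% recurred, against 32.4% and 34.8% of multi-ID intervals, whose median tally was 4. Tallies were not made equal in that comparison. Such pairs lie just outside the rule: they are overlapping calls with bounds that differ by gene ID, as at ENSG00000253873.1 above.

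Multi-ID and single-ID intervals were alike in size. The median tally was 4 for both kinds in both lists. Tallies of 3 made up 39.7% of multi-ID and 35.6% of single-ID intervals in replicate 1, and 49.4% and 45.2% in replicate 2. The median width was 43 nt (quartiles 32 and 53) against 42 nt (29 and 54) in replicate 1, and 40 nt (28 and 51) against 39 nt (26 and 51) in replicate 2. Widths of multi-ID intervals ran from 2 to 149 nt and from 1 to 147 nt, and 5 and 21 of them were 5 nt or narrower. The plus strand held 48.4% and 48.7% of them.

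The chromosomes differed in how many of their intervals were listed under several gene IDs. The Wilson intervals of chromosomes 14, 19 and 20 lay wholly above the value of the whole list in both replicates. On chromosome 20 the share was 4.84% (95% Wilson interval 3.49% to 6.69%) in replicate 1 and 5.61% (4.18% to 7.49%) in replicate 2. On chromosome 14 it was 5.22% and 5.10%, and on chromosome 19 4.93% and 4.42%. These came from many genes, with 26 groups on chromosome 19 in replicate 1 and 34 in replicate 2, 22 and 17 on chromosome 14, and 14 and 15 on chromosome 20. The Wilson intervals of chromosomes 4, 10, 18 and X lay wholly below the list value in both. The shares were 0.861% and 0.805% on chromosome 4 and 0.525% and 0.608% on chromosome 18. Chromosome 8 was below it in replicate 1, at 0.676%, but at 1.58% in replicate 2 its Wilson interval included the list value. No multi-ID interval lay on the mitochondrial chromosome, out of 70 and 62 intervals there, or on chromosome Y, which had 2 intervals in each list. With each gene group counted once, against the gene IDs of the chromosome, the list values were 4.03% and 4.39%. In replicate 1 the Wilson intervals of 3 chromosomes (14, 16 and 19) lay above it, in place of 5. In replicate 2 those of 2 (14 and 19) did, in place of 5. Chromosome 20 was no longer among them in either list. Its shares, 6.25% in replicate 1 and 6.88% in replicate 2, stayed above the list values. Their lower bounds, 3.76% and 4.21%, did not, with 224 and 218 gene IDs in place of 702 and 749 intervals. Wilson intervals below the list value numbered 1 in replicate 1 (chromosome 8) in place of 6. In replicate 2 they numbered 2 (chromosomes 10 and X) in place of 5, so none lay below in both lists. The shares of chromosomes 4, 10, 18 and X stayed below the list values in both. They were at most 2.21% in replicate 1 and 2.07% in replicate 2.

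**Figure D5:**
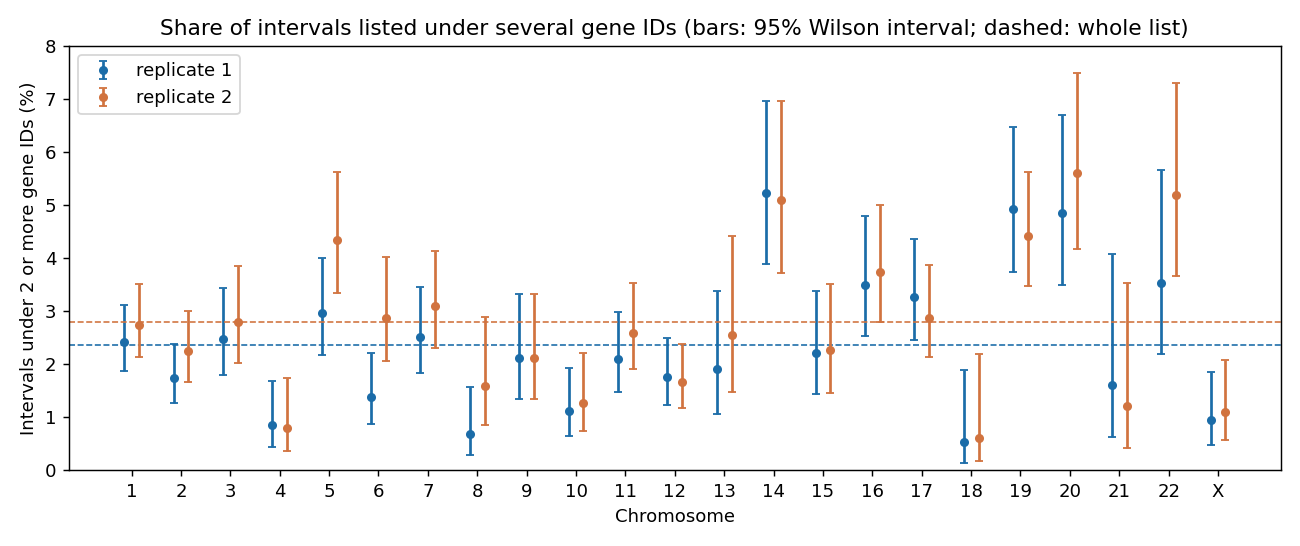
Percent of the distinct intervals of each chromosome that were listed under 2 or more gene IDs, in replicate 1 (blue) and replicate 2 (orange), with 95% Wilson intervals, and the value of each whole list dashed (2.36% and 2.80%). The whole Wilson interval lies above both dashed lines in both lists for chromosomes 14, 19 and 20, and below them for chromosomes 4, 10, 18 and X. Points of other chromosomes also lie above or below the lines.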

How the data were processed

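Each library had its own deposited peak list with no header. The submitters' processing notes name STAR 2.3.0e, Bowtie 1.0.0, cutadapt and build hg19. No peak caller is named there, in the labels or in the lists. The deposited p-value of each peak was under 0.05 in both lists, and whether the authors corrected it is not given either. File names record trimming and removal of duplicate reads. Library totals are not given, so sequencing depth is unknown. Tallies over distinct intervals summed to 150381 in replicate 1 and 128412 in replicate 2.

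Lines were merged by chromosome, start, end and strand. Starts were raised by 1. Recurrence meant an overlap of 1 nt or more on the same strand. The partner was the interval with the largest overlap. Single-ID intervals were weighted by exact tally, with 20 or more as one class. With 1 group and no control, no test was run, and shares carry 95% Wilson intervals. The labels do not say whether replicates came from separate cultures. Named items were the 10 groups with the most intervals, the 10 strongest matched intervals (1 a group), the intervals with the most gene IDs, and up to 5 unmatched intervals of tally 10 or more in each list. The pair on chromosome 5 described in full, the overlapping calls with other bounds, the unshared peaks of pairs and the order of p were chosen after values were seen. The rule's parts on gene families and readthrough names, and the marker lists, were not applied, because no Ensembl ID of the files could be paired with a symbol. The members and lists were chosen with earlier results of these data known. Member finding, overlap and weighting were tested on simulated data. Software was matplotlib 3.10.9, SciPy 1.17.1, pandas 2.3.3 and NumPy 2.4.6 under Python 3.11.15.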

Additional observations from a re-analysis of the deposited data

How the results depend on the processing

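Of 58 recomputed values, 36 stayed within the main value's Wilson interval, 1 SD or 1.5 times the main count, and 22 did not. The 36 overstate stability. For medians the limit was the SD of single intervals, -1.61 to 9.61 around the multi-ID median tally of 4 in replicate 1. The single-ID median tally of replicate 1 counted as unmoved at 7 against 4. Shares with identical coordinates, at 0 in the full lists, could not move in a part of them. The difference in recurrence between multi-ID and tally-weighted single-ID intervals stayed within its interval in each replicate with the stronger 50%, a minimum tally of 5, a reciprocal overlap of 50% or without the 21-ID group, although its sign varied. With identical coordinates both shares were at or near 0, and the difference says nothing about stability. Leaving out the 21-ID group, chosen after seeing the data, moved no value beyond it. A minimum tally of 5 gave a multi-ID share of 2.03% in replicate 1 and 2.51% in replicate 2, and counting overlaps with other bounds gave 5.07% and 5.41%. Recurrence of multi-ID intervals was 44.3% and 42.9% among intervals with p at or below the median of their list (the stronger 50%). There the other list was also cut to its stronger 50%. It was 60% and 69.1% with a minimum tally of 5, sought in the full other list. It was 26.7% and 27.9% with a reciprocal overlap of 50%, and 0% in each with identical coordinates. Multi-ID minus tally-weighted single-ID recurrence was 2.3 and -2.08 percentage points with the stronger 50%. That difference was 0.703 and 2.7 points with a minimum tally of 5, and 2.1 and 2.0 points with a reciprocal overlap of 50%. With each gene group counted once, 42.8% and 47.1% of groups had at least 1 recurring interval. That is another measure than the share of intervals, and no single-ID value stands beside it. With each gene group counted once, chromosomes with a Wilson interval above the list value numbered 3 and 2. Those with one below it numbered 1 and 2, in place of 6 and 5. In replicate 2 the stronger 50% left 3 above and 3 below in place of 5 each. A minimum tally of 5 left 172 of 425 gene groups, and 77 in both lists in place of 179. The causes were not tested, beyond the smaller lists that some alternatives use by construction. Without 1 replicate the number of gene groups was 292 to 313. No paired analysis was possible because there is only 1 group. What depth limits was not tested.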
